A study of Mus musculus with 180 samples.

Results

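Losmapimod and PH-797804 are 2 clinical kinase inhibitors (CKIs) directed against the p38 branch of the MAP kinases. Their samples were chosen by the treatment in the labels, 3 for each drug, which makes 6 of the 180 samples of the series. Bone marrow-derived macrophages (BMDMs), which are grown in culture from bone marrow, received 1 of 58 CKIs, or DMSO as vehicle, 1 h before LPS (10 ng/ml) was added for another 2 h, and their polyA RNA was sequenced. All of these cells were wild type and all of them received LPS, so there was no unstimulated group to set the drugs against. The cells came from young adult male C57/BL6 mice, by the methods of the study, which also describe the replicates as independent biological ones. The DMSO group held 6 samples, in 2 sets of 3, and the labels do not say which set belongs to which CKI. The drugs were given at different concentrations: per the study's design each was used at a concentration set by its binding to the intended target, and that of PH-797804 was several times that of Losmapimod. Losmapimod had been picked for MAPKAPK2, although it bound MAPK14 most tightly, and PH-797804 for MAPK11 and MAPK14. Because the concentrations differ, values of both drugs stand side by side and the difference between the drugs was not tested.

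The p38 kinases are activated by the kinases MKK3 and MKK6 within minutes after TLR4 recognizes LPS. Their main substrates in macrophages are MAPKAPK2 (MK2) and the kinases MSK1 and MSK2. MK2 phosphorylates tristetraprolin, the product of *Zfp36*, which otherwise binds AU-rich elements (AREs) and destabilizes cytokine mRNAs, whereas MSK1 and MSK2 phosphorylate CREB and histone H3 at early genes such as *Dusp1* and *Il10*. DUSP1 removes phosphate from p38 and JNK, and p38 also restrains the upstream kinase TAK1 through TAB1, so the pathway is known for strong negative feedback. The drugs act on the kinase proteins, and hence the transcripts of these kinases give no check that the kinases were inhibited.

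To let the loci be inspected, the promoters of 4 genes on which the results turn are given, as the 250 bases before the start of the gene, 5′ to 3′ on the gene's strand, from RefSeq on the build GRCm38.p6. *Mxd1* had the lowest adjusted p among the falls for each drug, *Zfp36* encodes the substrate tristetraprolin, *Dusp1* is the textbook MSK-CREB target, and *Dusp6* rose. Capitals mark the CRE half-site TGACG and the AP-1 motif TGANTCA on either strand. The full CRE, TGACGTCA, holds 2 overlapping half-sites.
Mxd1 (chr6:86669160-86669409, minus strand): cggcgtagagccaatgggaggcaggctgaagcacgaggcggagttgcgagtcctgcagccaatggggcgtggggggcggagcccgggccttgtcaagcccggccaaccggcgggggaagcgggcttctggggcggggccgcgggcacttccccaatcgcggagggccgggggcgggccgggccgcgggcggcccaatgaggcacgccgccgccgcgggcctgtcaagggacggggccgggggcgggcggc
Zfp36 (chr7:28379229-28379478, minus strand): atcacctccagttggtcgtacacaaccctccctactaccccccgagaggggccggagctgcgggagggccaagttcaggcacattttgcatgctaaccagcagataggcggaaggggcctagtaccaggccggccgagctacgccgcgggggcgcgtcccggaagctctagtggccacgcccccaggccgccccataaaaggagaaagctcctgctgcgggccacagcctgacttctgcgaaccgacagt
Dusp1 (chr17:26508473-26508722, minus strand): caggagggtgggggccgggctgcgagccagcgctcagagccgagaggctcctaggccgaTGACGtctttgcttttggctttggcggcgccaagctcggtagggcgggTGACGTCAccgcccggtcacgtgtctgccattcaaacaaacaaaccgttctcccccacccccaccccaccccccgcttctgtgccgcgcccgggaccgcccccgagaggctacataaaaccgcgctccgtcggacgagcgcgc
Dusp6 (chr10:99262981-99263230, plus strand): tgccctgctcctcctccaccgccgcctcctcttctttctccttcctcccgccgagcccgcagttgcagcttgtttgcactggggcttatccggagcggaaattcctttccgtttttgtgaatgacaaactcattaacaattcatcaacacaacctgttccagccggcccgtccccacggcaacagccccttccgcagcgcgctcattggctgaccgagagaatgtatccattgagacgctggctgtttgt
The *Dusp1* promoter had 1 full CRE and 3 half-sites, counting both strands, whereas the windows of *Mxd1*, *Zfp36* and *Dusp6* had none of these motifs. Of the 9131 promoters found for the 12714 genes tested, 2.63% held the full CRE, 27.8% the half-site and 4.23% the AP-1 motif. Of 118 promoters of genes that fell with both drugs together, 1.69%, 28.0% and 5.08% held them, and of 64 promoters of genes that rose, 7.81%, 32.8% and 3.12%. These are matches of letters and no test was made of them.

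The 12 libraries of DMSO, Losmapimod and PH-797804 had totals of 9481416 to 11142899 normalized values, which corresponded to about 11360000 to 14380000 counted reads in the 10 libraries whose scaling could be estimated. The 10 macrophage markers were measured in all groups, with summed normalized values of 99814 to 216614 in DMSO, 109030 to 232879 in Losmapimod and 101806 to 172656 in PH-797804. Markers of other cells were low: T cell markers summed to at most 22, erythroid markers to at most 2, B cell markers to at most 23, dendritic cell markers to at most 93 and fibroblast markers to at most 141 in any of the 12 libraries, and 1 B cell and 1 erythroid gene were at 0 in all 12. Neutrophil markers summed to 186 to 527 in DMSO, 286 to 929 in Losmapimod and 219 to 324 in PH-797804. Their part in the results was not tested, and in such bulk samples fewer cells with a transcript and less of it per cell cannot be told apart. One library stood apart: mitochondrial transcripts made up 3.86% of the normalized values in Losmapimod replicate 1, against 1.13% and 0.951% in the other 2 replicates, 0.759% to 1.94% in DMSO and 0.921% to 1.82% in PH-797804. Over all 180 libraries the share ran from 0.525% to 4.47%, and 10 libraries lay above Losmapimod replicate 1. The mean share exceeded that of DMSO by 0.831 percentage points for Losmapimod and 0.11 for PH-797804. Neither difference passed the test (exact two-sided permutation tests, adjusted p = 0.405 and 0.774). The smallest p possible with 84 arrangements is 0.0119.

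**Figure D1:**
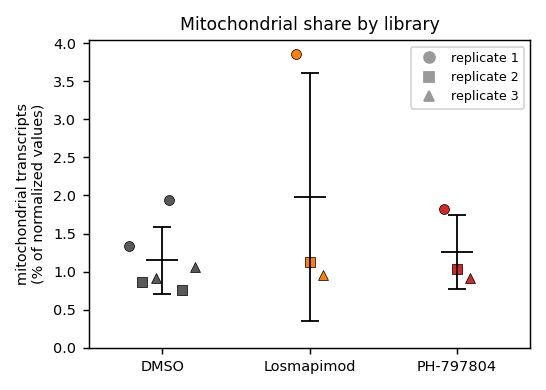
Share of mitochondrial transcripts in percent of all normalized values (y axis) in the 6 DMSO, 3 Losmapimod and 3 PH-797804 libraries. Circles, squares and triangles are replicates 1, 2 and 3, and bars give the mean and SD. Losmapimod replicate 1, at 3.86%, lies above the other 11 libraries, of which the highest is at 1.94%.

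Few genes were called for Losmapimod, and among them the repressor *Mxd1* fell most firmly. With 3 samples, few calls do not show that few genes changed. Of 12714 genes tested, 4 were higher (0.0315%) and 7 lower (0.0551%) than in DMSO at an adjusted p under 0.05 in limma's moderated test, and 1053 had an unadjusted p under 0.05. Apart from *Mxd1* the lower genes were *Il4ra*, *Adora2b*, *Socs3*, *Phf23*, *Bag3* and *Alas1*, and the higher ones were *Atp10d*, *Dusp6*, *Ect2* and *Sgk1*. All 11 genes were also called for PH-797804, in the direction seen with Losmapimod, in a comparison that used the same DMSO samples. With the replicate number as a block, which the data allow since same-numbered samples deviate together, 30 genes were called (0.236%). The count rested on single libraries, since it was 1 without Losmapimod replicate 1, 23 without replicate 2, 1 without replicate 3, and 3, 2 and 1 without DMSO set 1 replicates 1, 2 and 3, and 6 without either of DMSO set 2 replicates 2 and 3. *Mxd1* was called in each of the 9 fits without 1 library. In a fit of the Losmapimod and DMSO samples alone, without the spread of the other groups, 0 genes were called by limma, with 711 at an unadjusted p under 0.05, and *Mxd1* kept its change of -1.31 with an adjusted p of 0.362. Without Losmapimod replicate 1 but with the block, 11 genes were called, of which 6 were among those named above. Of the 7 lower genes 6 had all Losmapimod samples below all DMSO samples, and of the 4 higher genes 3 had them above. Of all genes tested, 0.464% and 2.17% had such an order. Since the calls rest on these same samples, the order is no separate check of them.

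For PH-797804, 93 genes were called higher (0.731%) and 159 lower (1.25%) than in DMSO. The counts of the 2 drugs were not tested against each other. The largest falls without overlap between the groups were those of *Gpr4*, *Mxd1*, *Il19*, *Ccr7*, *Ogfr*, *Prickle1* and *Dusp1*, and the largest rises those of *Atp10d*, *Cnr2*, *Dusp6*, *Trib3*, *Chac1*, *E330033B04Rik*, *Plau* and *Glyctk*. With the replicate block 567 genes were called (4.46%), 223 of them higher. Of the called genes 89 of 93 and 142 of 159 did not overlap with DMSO, against 4.91% and 2.62% of all genes tested. The genes were called from these same samples, so the lack of overlap describes them and is no separate check. A fit of the PH-797804 and DMSO samples alone called 51, of which 49 were among the 252. The count was 112, 133 and 101 without PH-797804 replicates 1, 2 and 3. When the samples were scaled again by the median of ratios, 61 of 308 called genes were higher, and for Losmapimod 2 of 14, and with no filter on low values 318 of 470 were higher, and for Losmapimod 173 of 190. The split between rises and falls thus depends on the scaling and on the filter, whereas each of the 252 and 11 genes kept its direction.

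For the mean of both drugs, 91 genes were higher (0.716%) and 141 lower (1.11%) than in DMSO. The replicate block gave 665 (5.23%), of which 323 were higher, and scaling by the median of ratios gave 321, of which 66 were higher. With no filter on low values 236 of 366 were higher, and a fit of only these groups and DMSO called 49. The count was 164 without Losmapimod replicate 1, 354 without replicate 2, 127 without replicate 3, 139 without PH-797804 replicate 1 and 132 without DMSO set 2 replicate 2. All 232 genes kept their sign in each of these fits. All 6 drug samples lay above DMSO for 41 of the 91 higher genes and below it for 31 of the 141 lower ones. Of all genes tested, 0.983% and 0.338% had such an order. Here too the order comes from the samples that gave the calls.

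*Mxd1* encodes a partner of MAX that represses targets of MYC, and it lies at chr6:86647044-86669159 on mm10. Its normalized value ran from 1752 to 3103 with a median of 2004.5 in the 6 DMSO samples. It was 903, 1144 and 616 in the 3 Losmapimod samples and 449, 570 and 384 in the 3 PH-797804 samples. Every drug sample thus lay below every DMSO sample. On the scale of log2(value + 1) the change was -1.31 ± 0.16 (SE, n = 3 against 6) for Losmapimod, adjusted p = 2.71e-09, and -2.21 ± 0.16 for PH-797804, adjusted p = 5.62e-23. The span of *Mxd1* overlaps that of *Gm38850* on the same strand, and reads from both could not be told apart where they share sequence.

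Of the other lower genes, *Il4ra* and *Adora2b* encode receptors. *Il4ra*, which encodes the alpha chain of the receptors of IL-4 and IL-13, had a range of 7673 to 11680 and a median of 10128.5 in DMSO. Its values were 5264, 5926 and 2938 with Losmapimod and 2905, 2569 and 2500 with PH-797804, all of them below the DMSO samples. The log2 changes were -1.1 ± 0.25 (adjusted p = 0.0369) and -1.86 ± 0.25 (adjusted p = 1.21e-08). *Adora2b*, the A2B receptor of adenosine, ran from 540 to 768 in DMSO with a median of 606.5. It stood at 265, 301 and 378 with Losmapimod and at 166, 201 and 185 with PH-797804, again with no overlap. In the test the changes were -1.02 ± 0.23 (adjusted p = 0.0369) and -1.78 ± 0.23 (adjusted p = 7.38e-09).

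Of the lower genes with smaller changes, *Alas1* encodes the rate-limiting enzyme of heme synthesis outside red cells and *Bag3* a co-chaperone of HSP70. *Alas1* was 819 to 976 in DMSO, 670, 742 and 668 with Losmapimod and 605, 556 and 668 with PH-797804. The spread between replicates was small, so that a log2 change of -0.36 ± 0.08 with Losmapimod passed the test (adjusted p = 0.0185), as did -0.55 ± 0.08 with PH-797804. *Bag3* was 1048 to 1316 in DMSO, 791, 926 and 844 with Losmapimod and 783, 733 and 662 with PH-797804. *Phf23*, which encodes a PHD finger protein, was 433 to 610 in DMSO, 398, 390 and 378 with Losmapimod and 350, 321 and 271 with PH-797804. For *Bag3* and *Phf23* as well, no drug sample reached the lowest DMSO sample. *Socs3*, a suppressor of cytokine signalling, was 30878 to 44201 in DMSO, and the Losmapimod samples at 20687, 31207 and 18460 overlapped with them in replicate 2, whereas the PH-797804 samples at 19998, 25150 and 21228 did not. The Losmapimod calls of *Il4ra*, *Adora2b*, *Alas1*, *Bag3*, *Phf23* and *Socs3* were lost in 4 to 8 of the 9 fits that left out 1 library, among them those without Losmapimod replicate 1, and the PH-797804 calls of all of them held in each such fit.

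Among the higher genes, *Dusp6* encodes a phosphatase specific for ERK. Its normalized value was 24 to 50 in DMSO with a median of 32, 80, 79 and 62 with Losmapimod, and 168, 116 and 105 with PH-797804. All drug samples lay above all DMSO samples. The log2 changes were 1.12 ± 0.26 (adjusted p = 0.0378) and 1.9 ± 0.26 (adjusted p = 2.04e-08). *Atp10d*, a transporter of lipids across membranes, was 4 to 34 in DMSO with a median of 22, 54, 39 and 59 with Losmapimod and 87, 113 and 84 with PH-797804. On the log2 scale these were changes of 1.41 ± 0.27 (adjusted p = 0.00534) and 2.31 ± 0.27 (adjusted p = 2.13e-10).

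*Sgk1*, a kinase induced by serum and glucocorticoids, was 1259 to 1479 in DMSO, 1828, 2142 and 1924 with Losmapimod and 2808, 2903 and 2406 with PH-797804. It thus rose without overlap in both, by 0.55 ± 0.13 and 1.01 ± 0.13 on the log2 scale (adjusted p = 0.0369 and 2.07e-09). *Ect2*, which acts in cell division, was 259 to 417 in DMSO, and the Losmapimod samples at 408, 527 and 549 overlapped with it while the PH-797804 samples at 533, 499 and 468 did not. *Socs3* and *Ect2* were named because so few genes were called for Losmapimod, after their values were seen. Of the Losmapimod rises, that of *Atp10d* was lost in 3 of the 9 fits without 1 library, those of *Dusp6* and *Ect2* in 7 and that of *Sgk1* in 8, and all 4 were lost without Losmapimod replicate 1. The calls of *Dusp6* and *Ect2* were also lost when the samples were scaled again.

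**Figure D2:**
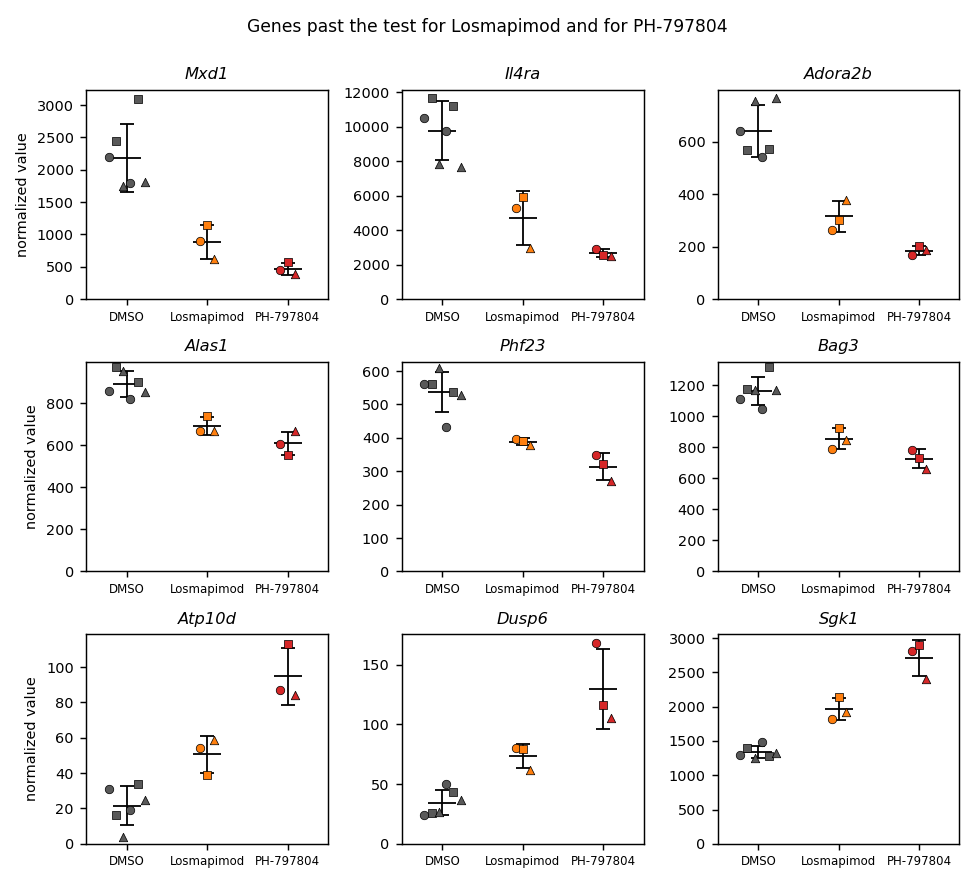
Normalized values (y axis, linear, from 0) of 9 genes past the test for Losmapimod and for PH-797804 whose drug samples did not overlap with DMSO, in 6 DMSO, 3 Losmapimod and 3 PH-797804 libraries. Circles, squares and triangles are replicates 1, 2 and 3, and bars give the mean and SD. In *Mxd1*, *Il4ra*, *Adora2b*, *Alas1*, *Phf23* and *Bag3* all drug samples lie below the DMSO samples, and in *Atp10d*, *Dusp6* and *Sgk1* all lie above them.

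Several genes passed the test for PH-797804 and not for Losmapimod, which does not show that the drugs differ in them. *Gpr4*, a receptor that senses protons, was 17 to 30 in DMSO, 16, 15 and 6 with Losmapimod and 3, 5 and 3 with PH-797804. These values are low, and the PH-797804 change of -2.47 ± 0.33 (adjusted p = 1.88e-08) was called in every fit without 1 library, while that of Losmapimod was -1.04 ± 0.33 (adjusted p = 0.339). *Ccr7*, the chemokine receptor that guides cells to lymph nodes, was 24 to 61 in DMSO, 19, 16 and 20 with Losmapimod and 8, 4 and 10 with PH-797804. Here both drugs lay below DMSO in all samples, with log2 changes of -0.83 ± 0.35 (adjusted p = 0.545) and -2.12 ± 0.35 (adjusted p = 9.99e-06). *Errfi1*, a feedback inhibitor of the EGF receptor, was 1338 to 1699 in DMSO, 1008, 657 and 771 with Losmapimod and 497, 479 and 334 with PH-797804. The 2 drugs gave -0.98 ± 0.27 (adjusted p = 0.188) and -1.87 ± 0.27 (adjusted p = 1.48e-07).

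*Ogfr*, the receptor of opioid growth factor, fell with PH-797804 (-2.11 ± 0.38 on the log2 scale, adjusted p = 5.7e-05), with values of 161, 235 and 180 against 474 to 1182 in DMSO and 395, 425 and 559 with Losmapimod. *Prickle1*, a protein of planar cell polarity, had low values, at 7 to 27 in DMSO, 9, 9 and 8 with Losmapimod and 2, 3 and 3 with PH-797804. Its PH-797804 change was -2.1 ± 0.52, and its call was lost without PH-797804 replicate 1 or 3. *Il19*, a cytokine of the IL-10 family, changed by -2.13 ± 0.61, a call lost without any 1 of the PH-797804 samples and without DMSO set 1 replicate 1 or 2 or set 2 replicate 1. On the other side *Trib3*, a pseudokinase, and *Chac1*, an enzyme that degrades glutathione, are both known targets of ATF4. *Trib3* was 35 to 93 in DMSO, 51, 95 and 110 with Losmapimod and 133, 246 and 244 with PH-797804, and only in the latter did all samples exceed DMSO. The change of *Trib3* with PH-797804, 1.83 ± 0.34, held in every fit without 1 library (adjusted p = 0.000101), whereas that of *Chac1*, 1.64 ± 0.47 (adjusted p = 0.0399), held in 2 of 9, those without DMSO set 1 replicate 3 or set 2 replicate 3. The rises of *Cnr2*, a cannabinoid receptor, and *Glyctk*, a glycerate kinase, were 1.96 ± 0.52 and 1.43 ± 0.39, and both calls were lost without any 1 of the PH-797804 samples or without DMSO set 2 replicate 2. That of *E330033B04Rik*, 1.63 ± 0.43, was lost without any 1 of the PH-797804 samples or either DMSO replicate 3. Values in DMSO were low, at 5 to 14 for *Chac1* and 1 to 21 for *Cnr2*. Those of *Glyctk* were 2 to 13 and those of *E330033B04Rik* 1 to 12. With PH-797804 none of these genes exceeded 34.

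For both drugs together, the largest changes were taken among called genes in which all 6 drug samples lay beyond all 6 DMSO samples. The rises were those of *Atp10d*, *Dusp6*, *Gm5176*, *Map2k6*, *Wdr76*, *Il12b*, *Gpr18* and *Zfp658*, and the falls those of *Mxd1*, *Gpr4*, *Ddit4*, *Il4ra*, *Ccr7*, *Errfi1*, *Adora2b* and *Ptges*. Of these, *Gm5176*, *Map2k6*, *Gpr18* and *Ddit4* were called for neither drug alone. *Ddit4*, an inhibitor of mTORC1, was 5 to 14 in DMSO, 3, 2 and 4 with Losmapimod and 2, 2 and 2 with PH-797804. At such low values counting error is large, and its call (-1.62 ± 0.46, adjusted p = 0.0356) held in 3 of 12 fits without 1 library, those without a sample of DMSO set 2. Those of *Gm5176*, *Gpr18* and *Map2k6* held in 7, 6 and 7 of 12, and all 3 were lost without Losmapimod replicate 1 and without PH-797804 replicate 1. *Wdr76* (1.15 ± 0.29) lost its call without DMSO set 2 replicate 2 or Losmapimod replicate 3, and *Zfp658* (1.09 ± 0.27) without DMSO set 1 replicate 3. The span of *Gpr18* overlaps those of *Ubac2* and *Gm46485* on the other strand, and the libraries keep no strand.

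Few genes of the cascade itself passed the test. Of 19 genes listed, 17 passed the filter on low values, and limma's test called 0 for Losmapimod and 0 for PH-797804. At an unadjusted p under 0.05 there were 4 and 7 of 17, where 8.28% and 13.2% of all genes tested had such a p, and with the replicate block 0 and 3 were called, the latter being *Map2k6* and *Mknk1*, higher, and *Mapkapk2*, lower. The median log2 change of the list was 0.04 for Losmapimod and -0.15 for PH-797804, where all genes had medians of 0.09 and 0.08. Scaled again, the list had -0.05 for Losmapimod and -0.22 for PH-797804. Of the p38 kinases, *Mapk14* (p38 alpha) was detected at 54.5 ± 12.4 normalized values per kb of cDNA (SD, n = 6) in DMSO, 61.8 ± 9.59 with Losmapimod and 51.5 ± 3.74 with PH-797804 (n = 3 each). *Mapk11* (p38 beta) was at 21.6 ± 5.41, 17.7 ± 3.78 and 16.4 ± 2.17 on the same scale. *Mapk12* and *Mapk13* had at most 1 and 3 normalized values in any of these 12 libraries. The levels of *Mapk14* and *Mapk11* with the drugs overlapped with those in DMSO.

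*Mapkapk2*, the substrate kinase for which Losmapimod had been picked, was 1275 to 1739 in DMSO, 1239, 1218 and 1053 with Losmapimod and 1040, 1059 and 919 with PH-797804. All drug samples lay below the DMSO samples, and the log2 changes were -0.37 ± 0.17 (adjusted p = 0.585) and -0.58 ± 0.17 (adjusted p = 0.0502). Both drugs together gave -0.47 ± 0.14 (adjusted p = 0.0545, and 0.0175 with the replicate block). *Map2k6*, which encodes MKK6, the activator of p38, was 3 to 11 in DMSO, 22, 17 and 14 with Losmapimod and 34, 18 and 19 with PH-797804. It was the 1 called member for both drugs together (1.25 ± 0.35, adjusted p = 0.0346), and the call held in 7 of 12 fits without 1 library, not without Losmapimod replicates 1 (adjusted p = 0.109) or 3, PH-797804 replicate 1 or DMSO set 1 replicates 1 or 2. *Map2k3* (MKK3) changed by -0.28 ± 0.11 (adjusted p = 0.168), and *Rps6ka4* (MSK2) and *Rps6ka5* (MSK1) by -0.3 ± 0.18 and 0.25 ± 0.16.

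Of 16 early genes listed here as targets of MSK and CREB, 3 fell with PH-797804, 0 rose and 13 did not pass the test. Whether each of the 16 depends on MSK and CREB in these cells was not tested. Of all genes tested 1.25% were called lower and 0.731% higher with PH-797804. For Losmapimod limma called 0 of 16, with 3 at an unadjusted p under 0.05, where 8.28% of all genes had such a p. The falls were those of *Dusp1*, *Junb* and *Il10*. With the replicate block 4 fell with PH-797804 and 1, *Junb*, with Losmapimod. The median log2 change was -0.13 for Losmapimod and -0.3 for PH-797804, below the medians of all genes. *Dusp1*, whose promoter with its CRE is printed above, was 7541 to 27409 in DMSO with a median of 21023.5, 11586, 11218 and 9103 with Losmapimod, and 4103, 5295 and 3239 with PH-797804. DMSO itself was spread widely, with both samples of replicate 3 at 7541 and 9752, within or below the range of the Losmapimod samples. The Losmapimod change of -0.65 ± 0.4 did not pass the test (adjusted p = 0.63), and the PH-797804 change of -2.01 ± 0.4 did (adjusted p = 0.000371), also in every fit without 1 library. For both drugs together the change of -1.33 ± 0.32 had an adjusted p of 0.00842, or 0.0541 without DMSO set 2 replicate 2.

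*Junb*, a member of AP-1, was 13235 to 24113 in DMSO, 7723, 14680 and 9675 with Losmapimod and 7787, 10235 and 8638 with PH-797804. Losmapimod replicate 2 overlapped with DMSO and the PH-797804 samples did not. The log2 changes were -0.71 ± 0.21 (adjusted p = 0.224) and -0.94 ± 0.21 (adjusted p = 0.00215, and 0.0558 without PH-797804 replicate 1). *Il10*, the anti-inflammatory cytokine, was 639 to 2089 in DMSO with a median of 903.5, 1506, 626 and 421 with Losmapimod, and 458, 244 and 267 with PH-797804. All PH-797804 samples lay below DMSO, and Losmapimod replicate 1, the library with the high mitochondrial share, lay close to the next to highest DMSO sample. Both DMSO samples of replicate 1 were the highest of DMSO, at 1509 and 2089. Each Losmapimod sample lay below both DMSO samples of its own number. The changes were -0.46 ± 0.44 (adjusted p = 0.721) and -1.7 ± 0.44 (adjusted p = 0.0141), the latter lost without PH-797804 replicates 2 or 3. With the replicate block and all libraries the adjusted p for PH-797804 was 3.79e-05. For both drugs together the adjusted p of *Il10* was 0.0944 with all libraries and 0.0432 without Losmapimod replicate 1, both from fits without the replicate block.

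The list of tristetraprolin and of transcripts known to carry AREs moved both ways. Of 23 genes 19 passed the filter, and with PH-797804 2 rose (*Ccl2* and *Plau*), 3 fell (*Zfp36*, *Il10* and *Cxcl3*) and 14 did not pass the test. Over all genes tested, 0.731% were called higher and 1.25% lower with PH-797804. For Losmapimod limma called 0 of 19, with 6 at an unadjusted p under 0.05, where 8.28% of all genes had such a p. With the replicate block 2 fell with Losmapimod, *Zfp36* and *Cxcl3*. With the block 3 rose and 6 fell with PH-797804. The median log2 changes were -0.11 for Losmapimod and -0.2 for PH-797804. *Zfp36* (chr7:28376784-28379228, mm10) was 3844 to 8441 in DMSO with a median of 5641, 4013, 2714 and 3200 with Losmapimod, and 2536, 1985 and 1543 with PH-797804. Only Losmapimod replicate 1 reached into the range of DMSO. The fitted changes were -0.85 ± 0.21 (adjusted p = 0.0856, and 0.00193 with the replicate block) and -1.57 ± 0.21 (adjusted p = 1.88e-08).

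*Ccl2*, the chemokine that draws monocytes, was 6977 to 8431 in DMSO, 8525, 11374 and 10544 with Losmapimod and 14799, 16544 and 19484 with PH-797804, so that every drug sample exceeded every DMSO sample. The log2 changes were 0.39 ± 0.12 (adjusted p = 0.288) and 1.13 ± 0.12 (adjusted p = 2.57e-12). *Ccl7*, its neighbour and close relative, was 3777 to 7874 in DMSO, 9580, 7425 and 7137 with Losmapimod and 9889, 8350 and 9326 with PH-797804. Both drugs together gave 0.83 ± 0.23 (adjusted p = 0.0332), and the call held in 4 of 12 fits without 1 library, being lost for example without Losmapimod replicate 1 (adjusted p = 0.112). *Plau*, the urokinase, was 86 to 152 in DMSO, 170, 126 and 312 with Losmapimod and 313, 281 and 283 with PH-797804, with changes of 0.81 ± 0.3 (adjusted p = 0.488) and 1.44 ± 0.3 (adjusted p = 0.000729).

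Of the classical inflammatory cytokines, *Tnf*, *Il6* and *Il1b* did not pass the test against DMSO. *Tnf* was 6668 to 8932 in DMSO, 10635, 10105 and 9375 with Losmapimod and 10021, 8162 and 6645 with PH-797804. All Losmapimod samples lay above DMSO, yet over the spread of the whole series the change of 0.38 ± 0.31 was not distinguishable from 0 (adjusted p = 0.681), nor was 0.08 ± 0.31 for PH-797804. *Il6* was 337 to 757 in DMSO, 711, 760 and 235 with Losmapimod and 405, 384 and 337 with PH-797804, with changes of -0.02 ± 0.43 and -0.45 ± 0.43. *Il1b* was 2842 to 6751 in DMSO, 5873, 2723 and 1883 with Losmapimod and 2280, 1422 and 1315 with PH-797804. Its PH-797804 samples lay below DMSO and the change of -1.25 ± 0.41 had an adjusted p of 0.0924, or 0.00843 with the replicate block. *Cxcl2* and *Cxcl3*, which attract neutrophils, changed by -0.56 ± 0.17 (adjusted p = 0.0561) and -0.71 ± 0.2 (adjusted p = 0.0383) with PH-797804, and *Cxcl1* by 0.12 ± 0.19. The call of *Cxcl3* held in 3 of 9 fits without 1 library, those without DMSO set 1 replicate 1, DMSO set 2 replicate 1 or PH-797804 replicate 3. With the replicate block and all libraries the adjusted p of *Cxcl3* was 5.27e-05. *Ccl3* and *Ccl4* changed by -0.28 ± 0.45 and -0.2 ± 0.2 with PH-797804.

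In the list of the IL-12 family and inflammatory enzymes, 7 of 10 genes passed the filter, and with PH-797804 1 rose and 1 fell. The shares over all genes tested were 0.731% and 1.25%. The rise was that of *Il12b*, the p40 subunit shared by IL-12 and IL-23. It was 1282 to 1936 in DMSO, 3207, 3304 and 2730 with Losmapimod and 4655, 3814 and 3463 with PH-797804, without overlap for either drug. Fitted log2 changes were 0.94 ± 0.29 (adjusted p = 0.275) and 1.3 ± 0.29 (adjusted p = 0.00221, and 0.0551 without PH-797804 replicate 1), and both drugs together gave 1.12 ± 0.23 (adjusted p = 0.0012). The fall was that of *Ptges*, the inducible synthase of prostaglandin E2. It was 254 to 398 in DMSO, 176, 239 and 168 with Losmapimod and 102, 107 and 148 with PH-797804, with changes of -0.83 ± 0.27 (adjusted p = 0.361) and -1.54 ± 0.27 (adjusted p = 3.65e-05). *Ptgs2*, which encodes the cyclooxygenase upstream of it, changed by -1.08 ± 0.32 with PH-797804 (adjusted p = 0.0501) and by -0.68 ± 0.32 with Losmapimod (adjusted p = 0.58), and *Nos2* by -0.65 ± 0.68 and -0.88 ± 0.68. With the replicate block *Ptgs2* fell with PH-797804 as well (adjusted p = 0.0238), so that 1 rose and 2 fell.

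**Figure D3:**
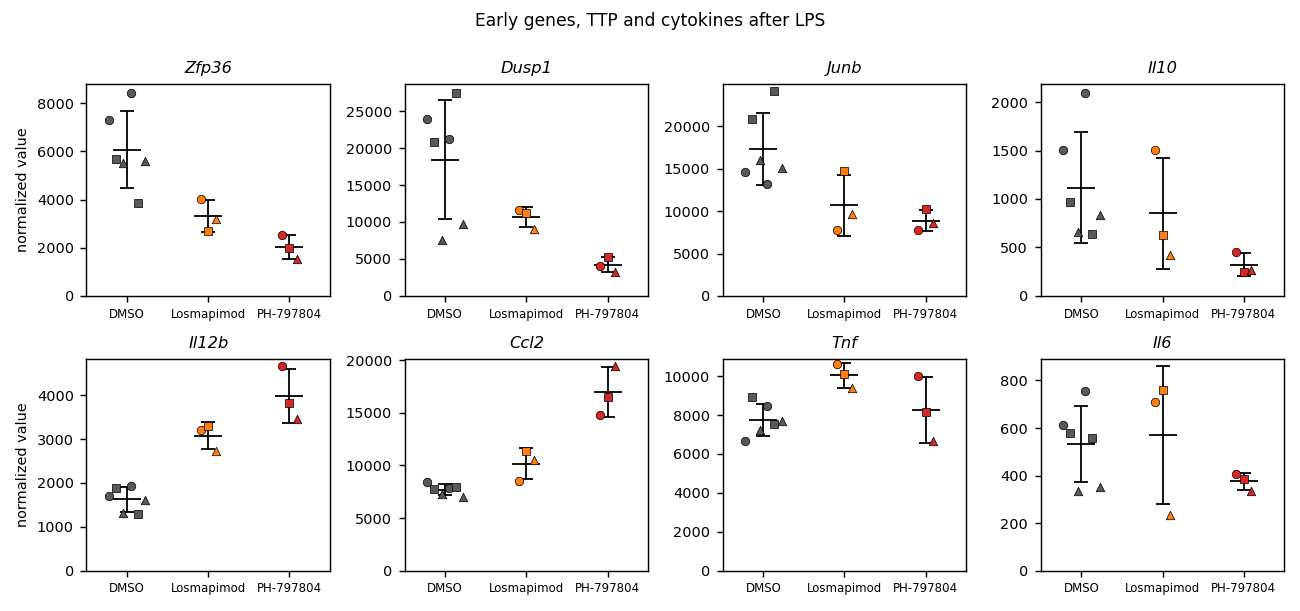
Normalized values (y axis, linear, from 0) of 8 genes in 6 DMSO, 3 Losmapimod and 3 PH-797804 libraries. Circles, squares and triangles are replicates 1, 2 and 3, and bars give the mean and SD. All PH-797804 samples lie below DMSO for *Zfp36*, *Dusp1*, *Junb* and *Il10* and above it for *Il12b* and *Ccl2*, whereas *Tnf* and *Il6* overlap with DMSO for PH-797804.

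Of 15 phosphatases and Sprouty or Spred proteins that feed back on MAP kinases, 12 passed the filter. *Dusp6* rose with both drugs and *Dusp1* fell with PH-797804, which leaves 11 not called for Losmapimod and 10 for PH-797804. Over all genes tested, 0.0315% were called higher with Losmapimod, and 0.731% higher and 1.25% lower with PH-797804. *Spry2*, an inhibitor of Ras signalling, was 103, 35 and 25 with Losmapimod, 134, 79 and 64 with PH-797804 and 12 to 86 in DMSO, and the PH-797804 change of 1.69 ± 0.53 had an adjusted p of 0.0749, or 8.86e-05 with the replicate block. The block gave 2 rises and 3 falls with PH-797804, adding the falls of *Dusp2* (adjusted p = 0.00486) and *Dusp14* (adjusted p = 0.0445). The median changes of the list were 0.1 and 0.02, close to those of all genes.

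Of 15 members and inhibitors of NF-kB, all tested, 3 fell with PH-797804 and 0 rose, where 1.25% and 0.731% of all genes tested did. For Losmapimod limma called 0, with 5 at an unadjusted p under 0.05, where 8.28% of all genes had such a p. *Tnfaip3*, which encodes the ubiquitin-editing protein A20, was 3424 to 9371 in DMSO, 4260, 5179 and 2887 with Losmapimod and 2959, 3193 and 2618 with PH-797804. The PH-797804 change was -0.96 ± 0.17 (adjusted p = 5.58e-05) and the Losmapimod change -0.51 ± 0.17 (adjusted p = 0.402). The others were *Nfkbia* (-0.34 ± 0.09, adjusted p = 0.0201), the inhibitor IkB alpha, and *Nfkb2* (-0.57 ± 0.15, adjusted p = 0.0177), whose calls were lost without PH-797804 replicates 1 or 2 or without DMSO set 2 replicate 2. With the replicate block *Bcl3* fell too (adjusted p = 0.0242), so that 4 of the 15 fell. The change of *Bcl3* was -0.65 ± 0.19, with the SE of the fit without the block. The span of *Nfkb2* overlaps those of *Psd* and *4833438C02Rik* on the other strand. Of 12 AP-1 genes *Junb* fell with PH-797804 and 11 did not pass, and for Losmapimod limma called 0, with 3 at an unadjusted p under 0.05 and 1 with the replicate block. *Jun* was 1187 to 3141 in DMSO, 1626, 3183 and 1401 with Losmapimod and 2634, 4066 and 3230 with PH-797804, with changes of 0.03 ± 0.26 and 0.78 ± 0.26 (adjusted p = 0.0947). With the block *Fosl2* fell with PH-797804 too (adjusted p = 0.000531), so that 2 of the 12 fell. Its change was -0.77 ± 0.31, with the SE of the fit without the block.

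None of 22 interferon genes passed limma's test for either drug, with 0 called for Losmapimod and 0 for PH-797804, whose medians were -0.05 and -0.07. At an unadjusted p under 0.05 there was 1 for each drug, where 8.28% (Losmapimod) and 13.2% (PH-797804) of all genes tested had such a p. With the replicate block 0 were called for Losmapimod and 1, *Ifnb1*, for PH-797804. *Ifnb1*, interferon beta, was 75 to 262 in DMSO, 206, 126 and 141 with Losmapimod and 266, 256 and 221 with PH-797804, with changes of 0.49 ± 0.4 (adjusted p = 0.681) and 1.17 ± 0.4 (adjusted p = 0.115). *Cxcl10* changed by 0.02 ± 0.3 and -0.08 ± 0.3.

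The mean of both drugs was also compared with the mean of the other 56 CKIs, a reference of 168 samples that does not include DMSO. The SE and p of this test rest on the spread between replicates and leave out the spread between CKIs. They concern the average of these 56 CKIs and do not show that the drugs stand apart from kinase inhibitors in general. In this comparison 113 genes were higher (0.889%) and 194 lower (1.53%), and 604 were called with the replicate block (4.75%). With no filter on low values 682 were called, 481 of them higher. The count was 199 without Losmapimod replicate 3 and 177 and 172 without PH-797804 replicates 2 and 3. The largest falls were those of *Ccr7* (-1.81 ± 0.21), *Gpr4* (-1.69 ± 0.2), *Hamp* (-1.56 ± 0.3), *Adora2b* (-1.44 ± 0.14), *Il19* (-1.39 ± 0.36), *Il10* (-1.36 ± 0.26), *Ddit4* (-1.3 ± 0.33) and *Zfp36* (-1.29 ± 0.12). *Hamp* encodes hepcidin, the hormone of iron balance. Its values were low, at 2, 2 and 3 with PH-797804, 19, 5 and 1 with Losmapimod and 5 to 35 in DMSO. Losmapimod thus overlapped with DMSO, and *Hamp* was not called against DMSO for either drug or for both together. The largest rises were those of *Atp10d* (1.26 ± 0.16), *Dusp6* (1.15 ± 0.15), *Hhex* (1.03 ± 0.2), *Il12b* (1.02 ± 0.17), *Trib3* (1.02 ± 0.2), *Chac1* (1.01 ± 0.28), *Card6* (0.95 ± 0.26) and *Disc1* (0.8 ± 0.21). *Hhex*, a homeobox factor, was 304, 612 and 519 with PH-797804, 140, 417 and 210 with Losmapimod and 145 to 502 in DMSO, and both drugs together differed from DMSO by 0.53 ± 0.28 (adjusted p = 0.334). The calls of *Card6* and *Chac1* held in 2 of 6 fits without 1 library, those of *Disc1* and *Il19* in 3, not without Losmapimod replicate 3 or PH-797804 replicates 2 or 3, and that of *Ddit4* was lost without Losmapimod replicate 2.

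Against the other CKIs the SEs were smaller than against DMSO, where the reference held 168 samples in place of 6. In this comparison 1.53% of all genes tested were called lower and 0.889% higher. Of the 16 MSK-CREB genes 5 were lower, namely *Fos*, *Fosb*, *Junb*, *Il10* and *Il1rn*. Of these, only *Junb* was also called for both drugs together against DMSO. *Fosb* was 17 to 40 in DMSO, 23 to 38 with Losmapimod and 13 to 23 with PH-797804, and thus overlapped with DMSO for both drugs. Of the 19 ARE genes 5 were lower (*Zfp36*, *Il10*, *Il1b*, *Cxcl2* and *Cxcl3*) and 1, *Ccl2*, was higher. *Il1rn*, the antagonist of the IL-1 receptor, was lower by -0.76 ± 0.2 (adjusted p = 0.0137) and *Il1b* by -0.9 ± 0.24 (adjusted p = 0.0185). Both calls were lost without Losmapimod replicate 3 or PH-797804 replicate 3, that of *Il1b* also without replicate 2 of either drug. With the replicate block and all libraries the adjusted p was 1.08e-06 for *Il1rn* and 0.00056 for *Il1b*. In the cascade *Mapkapk2* was lower (-0.45 ± 0.1, adjusted p = 0.00207) in every fit without 1 library. *Map3k5*, the kinase ASK1 (-0.47 ± 0.14, adjusted p = 0.0434), and *Mknk1*, the kinase MNK1 (0.22 ± 0.07, adjusted p = 0.0489), were called with all libraries and in 0 and 1 of the 6 fits without 1. *Dusp2*, *Dusp4* and *Dusp14* were lower, by -0.62 ± 0.15, -0.78 ± 0.23 and -0.77 ± 0.18, and *Dusp6* was higher. Against DMSO only *Dusp6* of these was called for both drugs together. *Dusp4* was 235 to 452 in DMSO, 240 to 501 with Losmapimod and 198 to 258 with PH-797804. The calls of *Dusp2* and *Dusp14* were lost without Losmapimod replicate 3, the latter also without PH-797804 replicate 2, and that of *Dusp4* held in 1 of 6 such fits, the one without Losmapimod replicate 3. *Jun* was higher by 0.73 ± 0.15 (adjusted p = 0.000628) while *Junb*, *Fos* and *Fosb* were lower, by -0.57 ± 0.12, -0.39 ± 0.09 and -1.11 ± 0.26. The call of *Jun* was lost without Losmapimod replicate 2 and that of *Fosb* without PH-797804 replicate 3. Of the 15 NF-kB genes 3 were lower, *Tnfaip3* by -0.45 ± 0.1, *Bcl3* by -0.42 ± 0.11 and *Nfkbia* by -0.2 ± 0.05. Of the 22 interferon genes 1 was lower, *Oasl1* (-0.47 ± 0.12, adjusted p = 0.0151), and of the 7 genes of the IL-12 list *Il12b* was higher and *Ptges* lower (-0.98 ± 0.16). Of the 10 macrophage markers 1, *Cd14*, the co-receptor of TLR4 for LPS, was lower (-0.48 ± 0.14, adjusted p = 0.0292), and the part of cell make-up in these results was not tested. Without Losmapimod replicate 3 the calls of *Tnfaip3*, *Bcl3*, *Nfkbia*, *Oasl1* and *Cd14* were all lost, and those of *Bcl3*, *Nfkbia*, *Oasl1* and *Cd14* held in 3, 2, 4 and 2 of the 6 fits without 1 library.

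Among the other CKIs, Talmapimod has MAPK14 and VX-702 has MAPK11 and MAPKAPK2 as targets, again at concentrations of their own, so their values are only set beside those above. Against the same DMSO samples 0 genes were called for Talmapimod, where 1074 had an unadjusted p under 0.05 and 1 was called with the replicate block. For VX-702 24 were called, of which 1 was higher, or 86 with the replicate block. Of the 91 genes called higher for both p38 drugs together, 90 rose with Talmapimod and 85 with VX-702. Over all genes tested the median log2 change was 0.1 with Talmapimod and 0.06 with VX-702, so that more genes rose than fell. Of the 141 genes called lower for both p38 drugs together, 124 fell with Talmapimod and 129 with VX-702, and of these 0 and 16 were called. Of all 12714 genes tested, 0 and 23 were called lower. The shared DMSO samples mean that these directions are not independent. *Mxd1* was 1377, 1618 and 1186 with Talmapimod and 1263, 857 and 1312 with VX-702, all below the lowest DMSO sample, with log2 changes of -0.63 ± 0.16 (adjusted p = 0.297) and -0.92 ± 0.16 (adjusted p = 0.000214). *Ogfr*, which fell with PH-797804, was 161, 135 and 197 with VX-702 (-2.33 ± 0.38, adjusted p = 6.28e-05) and 690, 1471 and 759 with Talmapimod. *Dusp6* was 56, 57 and 63 with Talmapimod, above all DMSO samples (0.8 ± 0.26, adjusted p = 0.341), and 25, 38 and 29 with VX-702. *Zfp36* was 6964, 3737 and 5577 with Talmapimod and 4965, 5887 and 4193 with VX-702, which overlapped with DMSO. *Adora2b*, lower with both p38 drugs, was 412, 546 and 471 with Talmapimod. With VX-702 it was 752, 697 and 876 and thus did not fall below the DMSO range of 540 to 768. *Plau* was 249, 254 and 204 with Talmapimod, above all DMSO samples (1.12 ± 0.3, adjusted p = 0.317), and 170, 314 and 87 with VX-702.

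**Figure D4:**
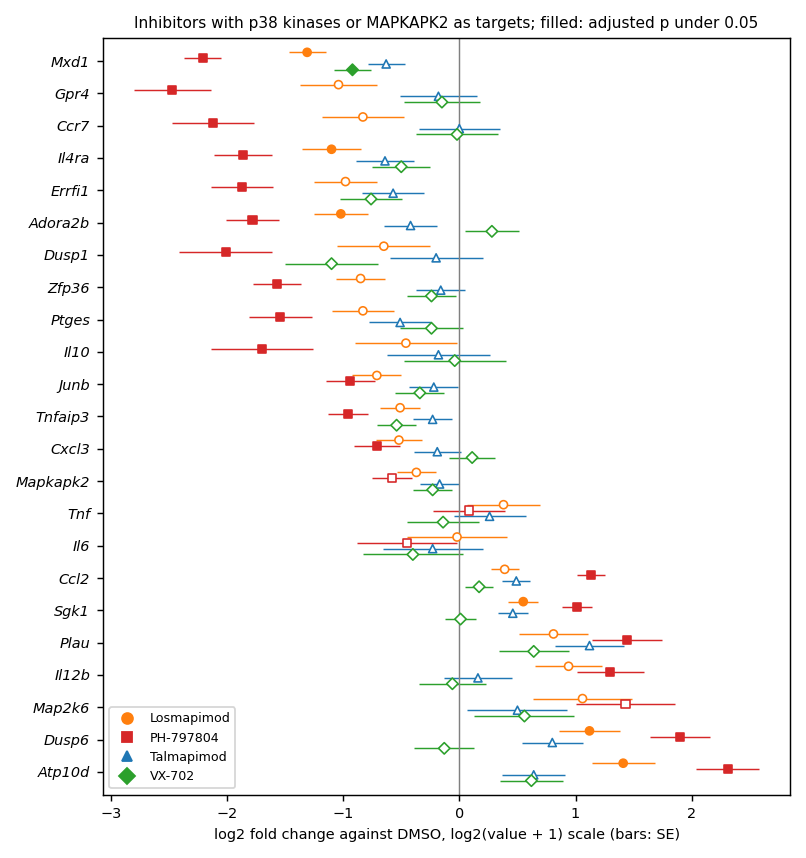
Log2 fold change against the 6 DMSO samples on the scale of log2(normalized value + 1) (x axis) for 23 genes, with SE as bars, for Losmapimod (circles), PH-797804 (squares), Talmapimod (triangles) and VX-702 (diamonds). Each drug has 3 samples and its own concentration, all share the DMSO samples, and filled symbols have an adjusted p under 0.05. PH-797804 has 19 of the 23 filled, Losmapimod 6, VX-702 1 and Talmapimod 0, and *Mxd1* lies left of 0 for all 4. The genes were taken from those named above with the calls known, so these counts describe the choice and do not compare the drugs. Of all 12714 genes tested, 252 were called for PH-797804, 11 for Losmapimod, 24 for VX-702 and 0 for Talmapimod.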

How the data were processed

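PolyA RNA of LPS-stimulated BMDMs was sequenced from SMART-seq2 libraries, which keep no strand. According to the methods of the study, the authors aligned reads with TopHat2 2.1.1 to mm10 keeping 1 alignment per read, removed blacklisted regions with bedtools 2.29.2, counted exons of RefSeq genes and scaled the counts on invariant genes. The deposited values are whole numbers, taken here as rounded, and are thus a score and not raw counts, called normalized values here, and no count model was fitted to them. Scaling on invariant genes sets what counts as no change, and multiplying low counts adds no precision, so changes of genes with low values rest on few reads. The authors' own tests used DESeq2 and are not used here.

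Values were tested with limma 3.58.1 in R 4.3.3 on log2(value + 1), with a trend of the variance on the mean, in 1 fit of all 59 groups. The 12714 of 45070 genes with a mean of at least 10 over all 180 samples entered, p-values were adjusted by Benjamini-Hochberg over all of them, and genes with an adjusted p under 0.05 were called. The scale understates changes of low genes. The 4 comparisons were each drug and both drugs against DMSO, and both drugs against the other 56 CKIs. The first 3 share the DMSO samples. The fit was first tested on simulated data. Named are up to 8 genes per direction and comparison with the largest change among called genes whose drug samples did not overlap with DMSO (against the other CKIs, among all called genes), and members of the gene lists. One result that this rule gives is not reported here. The drugs, lists and genes were chosen with earlier results of these data known. Samples of the same replicate number deviated together. Over the 12 libraries, deviations from the group means correlated at 0.16 to 0.75 in 18 pairs of the same number. In 36 pairs of different numbers they correlated at -0.63 to 0.37. Deviations from a group mean sum to 0, so these lower values follow in part from the subtraction and are no second observation. Counts and calls from the fit with the number as a block are therefore given beside those without it for many but not all genes. The fits that left out 1 library had no block unless it is named. The pairing comes from the numbers in the labels. No 2 of the 12 libraries were duplicates, and 0 columns lacked a sample. For whole reads, the scaling was estimated from the steps between low values.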

Additional observations from a re-analysis of the deposited data

Results flagged for a closer look

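Among the 6 DMSO samples, 1 lay far above the other 5 for 4 of the 80 measures examined by Dixon's test, and about 1 in 20 such groups is marked by chance. In DMSO set 2 replicate 2, *Disc1* had a normalized value of 39, where the next highest DMSO sample had 15. In DMSO set 2 replicate 1, *Hamp* had 35 against 11 in the next sample, *Ccl3* had 12411 against 8207 and *Ifnb1* had 262 against 129.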

How the results depend on the processing

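Numbers of called genes are given for Losmapimod, PH-797804 and both drugs against DMSO and, where a value is last of 4, for both against the other CKIs. They were 190, 470, 366 and 682 with no filter on low values, of which 173, 318, 236 and 481 were higher. With the replicate block they were 30, 567, 665 and 604, and with the mitochondrial share beside the replicate block 23, 659, 540 and 715. All calls made without the block remained with it. With the mitochondrial share permuted within replicate numbers, neither difference passed (exact permutation, adjusted p = 0.148 for Losmapimod). A limma fit of only the groups compared called 0, 51 and 49, with 711 genes at an unadjusted p under 0.05 for Losmapimod. DMSO set 1 alone gave 5, 117 and 65, and set 2 alone 1, 143 and 83. Leaving out 1 library gave 1 to 23 for Losmapimod, 101 to 280 for PH-797804, 127 to 354 for both and 172 to 267 against the other CKIs. The cause of these moves was not tested. Other pseudocounts (0.5 and 10), a stricter filter, no variance trend, another scaling and leaving out Talmapimod and VX-702 kept each number within 1.5 times. Leaving out Losmapimod replicate 1 together with the replicate block, chosen after seeing the data, gave 11 for Losmapimod, 341 for both and 442 against the other CKIs. No called gene changed sign under any of these settings. Read depth limits what can be said of genes with low values.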
